A study of Bos taurus with 30 samples.

Results

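The corpus luteum develops from the ruptured follicle and is the ovary's source of progesterone. The comparison described here is between early glands, on day 4 of the estrous cycle, collected 24 h after an injection of prostaglandin F2α (PGF2α) and others collected 4 h after it. Its members were chosen by their labels: the 5 arrays of day 4 tissue at 24 h and the 5 at 4 h, 10 of the 30 arrays of the study, with all 24016 probe sets that are not controls. Each array held total RNA of luteal tissue from 1 Angus crossbred heifer on the Affymetrix GeneChip Bovine Genome Array, so the 24 h and the 4 h groups were different animals. The heifers had been assigned at random to 1 of 6 treatments, day 4 or day 11 with collection at 0, 4 or 24 h. Those at 0 h had received saline and those at 4 and 24 h PGF2α. Saline groups at 4 or 24 h are not among the samples, so the effect of PGF2α and that of the hours that passed, which in a young gland are hours of growth, cannot be told apart.

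PGF2α is the uterine hormone that ends the life of a mature corpus luteum, in which it stops progesterone secretion and starts tissue regression. A young gland has receptors for it and responds within hours, yet normally does not regress. The response of luteal tissue to PGF2α is known to include immediate-early transcription factors, chemokines and cytokines, vasoactive peptides, proteases and their inhibitors, and changes in the genes of cholesterol uptake and steroid synthesis.

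Of 6 genes of luteal cells, OXT (oxytocin), HSD3B1, CYP11A1 and STAR had log2 signals of 13.92, 13.41, 13.23 and 12.91 averaged over both groups, at the 99.1 percentile of the 9155 named genes or above it. PTGFR lay at the 94.3 percentile and LHCGR at the 41.7 percentile. These ranks compare different probe sets and are approximate. Markers of other cells were also present in the whole tissue. Near background is taken here as a group mean under 4.50, the 30th percentile of probe set means. By that limit 2 of 20 macrophage, 0 of 16 smooth muscle and pericyte, 2 of 20 endothelial, 2 of 11 granulosa and theca, 5 of 13 neutrophil and eosinophil, 10 of 23 lymphocyte and 5 of 9 erythrocyte markers were near background in both groups. Those that were included FSHR and FOXL2 of granulosa cells, MPO and ELANE of neutrophils, CD79A and MS4A1 of B cells, and KDR and VWF of endothelium.

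Array medians of the 10 arrays lay between 6.04 and 6.16 log2 units. The deposited values had been normalized between arrays, so the medians can show little of a difference between groups. Neither the medians nor the 3′ to 5′ differences of the actin and GAPDH control probe sets separated the groups (exact two-sided permutation tests, p = 0.69, 0.85 and 0.55, all 0.85 after adjustment, with 0.0079 the smallest p that 5 against 5 allows). The 24 h arrays were not alike. Replicate 1 correlated with the 0 h arrays at 0.992 on average and with the other 24 h arrays at 0.987, and replicate 5 did so at 0.991 and 0.990. Whether replicate 1 was mislabelled or from an animal that did not respond was not tested, and its label was followed. Replicate 4 lay farthest from the 0 h arrays, at 0.977. In the 4 h group, replicate 4 had the weakest chemokine response, as described below. The number of arrays limits the precision of every value. In whole tissue, fewer cells of a type and less RNA per cell cannot be told apart.

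Between 4 h and 24 h the day 4 gland lost the transcripts of an acute inflammatory and growth factor response. Chemokines, interleukins, the growth factors FGF2 and AREG, components of NF-κB signalling and immediate-early transcription factors were lower at 24 h, and few of them then differed from the saline glands. Genes of mitosis and ribosome production were lower at 24 h as well, and most of the mitotic genes lay below the saline glands. In the other direction, the receptors for luteinizing hormone and PGF2α and the hormone gene PTHLH were higher at 24 h. So were some genes of steroid and cholesterol synthesis, the respiratory chain and the lysosome.

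A probe set was called where limma's moderated test gave a Benjamini-Hochberg adjusted p under 0.05. By that rule 3580 of 24016 probe sets differed between 24 h and 4 h (14.9%), 1841 higher and 1739 lower at 24 h (7.67% and 7.24%). With 1 probe set for each gene, 1834 of 9155 genes were called, of which 933 were higher (10.2%) and 901 lower (9.84%). The counts of list members given below are to be read beside these shares of all genes. The median difference of all genes was 0.01 log2 units. Large changes were mostly falls, with 200 genes lower and 71 higher by at least 2-fold, and 25 lower and 3 higher by at least 4-fold. For 607 genes every 24 h array lay below every 4 h array (6.63%), and for 862 every 24 h array lay above (9.42%). The annotation gave no single gene symbol for 1316 of the called probe sets, which are not described further.

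Chemokine transcripts made up much of the largest falls. CCL4, which attracts macrophages and lymphocytes, had log2 signals of 5.85, 5.68, 5.33, 5.77 and 5.51 in the 24 h arrays, against 11.31, 10.86, 10.64, 8.08 and 10.34 in the 4 h arrays. The groups did not overlap, and the 24 h values lay around the saline mean of 5.60. CCL4 was 24.5-fold lower at 24 h, a log2 difference of -4.61 (SE 0.41, adjusted p = 7.93e-09). CXCL8, a neutrophil attractant, had 5.50, 4.15, 5.62, 5.27 and 4.50 at 24 h, against 9.44, 10.03, 8.02, 5.77 and 9.41 at 4 h. Its 24 h values were all below the lowest 4 h value, that of replicate 4, which stood far below the other 4 h arrays. The log2 difference was -3.52 (SE 0.58, adjusted p = 0.000112). Differences of -4.41 and -2.84 were measured for the neutrophil attractants CXCL2 and GRO1 (RefSeq synonym CXCL1), and of -3.53 and -3.11 for the monocyte attractants CCL8 and CCL2. CXCL2 was near background at 24 h, at 2.81 ± 0.40 log2 units. In all 4 of these genes, too, replicate 4 was the lowest of the 4 h arrays.

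**Figure D1:**
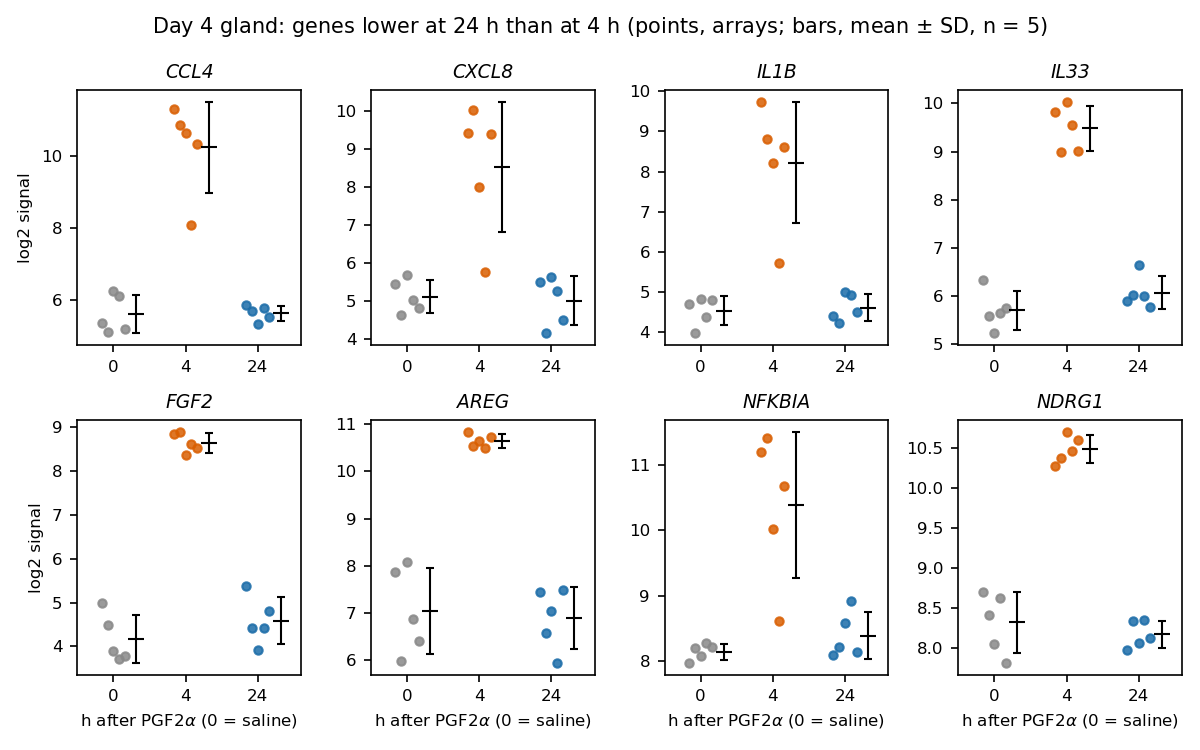
RMA log2 signal (vertical axes) of 8 genes in the day 4 arrays at 0 h (saline), 4 h and 24 h after PGF2α. Points are arrays, 1 per heifer, and bars are mean ± SD (n = 5). In each panel the 24 h arrays lie near the saline arrays and below the 4 h mean, and 1 of the 4 h arrays, replicate 4, is far below the others for CCL4, CXCL8, IL1B and NFKBIA.

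Among cytokines, IL1B (interleukin-1β) had log2 signals of 4.41, 4.22, 5.00, 4.92 and 4.51 at 24 h, against 9.73, 8.82, 8.22, 5.72 and 8.62 at 4 h. The groups did not overlap, and replicate 4 was again the lowest 4 h array. The fall was 12.2-fold (adjusted p = 4.09e-05). IL33, an alarm cytokine released by damaged cells, had 5.91, 6.02, 6.65, 6.00 and 5.77 at 24 h, against 9.83, 8.99, 10.03, 9.54 and 9.01 at 4 h. Again no array of 1 group entered the range of the other, but here the 4 h arrays were close together and replicate 4 had the middle value. Of the 38 chemokine and cytokine genes measured, 19 were lower at 24 h and 0 higher, with a median difference of -0.75. At 4 h, 17 of the 38 had been higher than in saline glands, against 3.29% of all genes (0 of the 38 and 1.99% of all genes were lower), and at 24 h 0 were called against saline in either direction, with 4 lower and 0 higher at an unadjusted p under 0.05 in limma (of all genes 3.03% were called higher and 4.73% lower). These 3 comparisons share arrays and are set side by side only. The mean of the list was 5.14 to 5.33 in the 24 h arrays, against 5.83 to 6.97 in the 4 h arrays.

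The same was seen in genes that carry and limit inflammatory signals. NFKBIA, the inhibitor that NF-κB itself induces, had log2 signals of 8.10, 8.23, 8.58, 8.92 and 8.14 at 24 h, against 11.19, 11.41, 10.02, 8.62 and 10.68 at 4 h. The groups overlapped, since replicate 4 at 4 h was within the 24 h range, and the difference of the means was -1.99 (SE 0.37, adjusted p = 0.000415). In the list of 30 NF-κB and cytokine signalling genes, 22 were lower at 24 h and 0 higher, and the median difference was -0.94. They included IL4R, a cytokine receptor subunit (-1.99), BIRC3, an inhibitor of cell death (-1.78), and ICAM1, an adhesion molecule for leucocytes (-1.57). The feedback inhibitors of signalling fell in 8 of 20 genes and rose in 0, among them SOCS3 of the cytokine pathways (-1.23), the phosphatase DUSP1 (-1.21) and TRIB1 (-1.10).

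Of 22 immediate-early transcription factors and related genes, 11 fell and 0 rose, with a median of -0.69. SRF, the factor that binds the serum response elements of many such genes, had log2 signals of 6.49, 6.43, 6.62, 6.48 and 6.53 at 24 h, against 7.42, 7.76, 7.74, 7.76 and 7.67 at 4 h. Both groups were tight and far apart, and SRF was 2.23-fold lower at 24 h (adjusted p = 5.41e-10). IER3, MAFF and FOSB fell by 1.50, 1.34 and 1.13 log2 units. FOS had 8.91, 8.52, 9.26, 10.73 and 8.41 at 24 h, against 10.54, 9.95, 9.61, 9.29 and 10.26 at 4 h, and its groups overlapped through replicate 4 of the 24 h group, the highest of all 10 arrays. FOS was not called (difference -0.76, adjusted p = 0.256), and neither was NR4A1, a nuclear receptor of the same early class (-1.02, adjusted p = 0.18). With array weights both were called, with differences of -0.97 and -1.14, and NR4A1 was also called in a fit to the 10 arrays alone.

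A few growth factors were among the largest falls. FGF2, a fibroblast growth factor that promotes vessel growth in the corpus luteum, had log2 signals of 5.37, 4.42, 3.92, 4.43 and 4.80 at 24 h, against 8.84, 8.90, 8.35, 8.61 and 8.51 at 4 h. There was no overlap, the fall was 16.6-fold (adjusted p = 7.66e-09), and the saline mean was 4.18. AREG, a ligand of the EGF receptor, had 7.44, 6.57, 7.05, 5.94 and 7.49 at 24 h, against 10.84, 10.53, 10.63, 10.49 and 10.74 at 4 h. It was 13.5-fold lower at 24 h, and it was the 1 of 7 EGF receptor ligands and receptors measured that was called (2 without replicate 4 of the 24 h group or replicate 5 of the 4 h group). INHBA, the activin and inhibin β subunit, and TGFB2 were among 4 of 27 TGF-β family genes that fell (-1.55 and -1.23). None of these 27 rose, and of all genes 9.84% were lower and 10.2% higher. Of 39 angiogenic and vasoactive factors 9 fell and 4 rose (2 without replicate 2 of the 24 h group), with a median of -0.08. The count of rises was near the 10.2% of all genes. EDN1 (endothelin-1), a constrictor of vessels, and ANGPT2, which loosens them, fell by 1.63 and 1.18. VEGFA, the main angiogenic factor of the gland, had means of 10.68 ± 0.51 at 24 h and 10.59 ± 0.14 at 4 h (SD, n = 5 each). Its difference of 0.09 was not called, and its sign turned without replicate 1 of the 24 h group or with the mean of its 2 probe sets.

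Several genes of matrix turnover fell. LOC281376, for which RefSeq gives the synonym PAI2, a plasminogen activator inhibitor, had log2 signals of 9.09, 7.29, 7.90, 7.40 and 8.25 at 24 h, against 12.35, 11.83, 11.56, 12.14 and 12.25 at 4 h. No 24 h array reached the 4 h range, and the gene was also lower at 24 h than in saline glands, by -1.72 (adjusted p = 0.00722). The same held for PTX3, a soluble pattern recognition protein and matrix component, with -3.27 against 4 h and -1.74 against saline (adjusted p = 0.00714). In the list of 26 matrix proteases and inhibitors 7 were lower and 2 higher. PLAUR, the urokinase receptor, fell by 1.72, the protease inhibitor TIMP3 by 1.31 and LOXL4, an enzyme that cross-links collagen and elastin, by 1.74. THBS1 and THBS2, thrombospondins that oppose vessel growth, and VCAN, a large proteoglycan, fell by 1.07, 0.68 and 1.03. Among 31 collagens and matrix glycoproteins, 5 were lower, 1 was higher and 25 were not called, with a median of -0.07. When 1 array was left out, 4 to 7 were lower and 0 to 1 higher.

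Of 14 genes of prostaglandin synthesis, transport and breakdown, 4 were lower at 24 h, 1 was higher and 9 were not called. The 1 higher was the receptor PTGFR (2 were higher without replicate 4 of the 24 h group, or without replicate 2 or 3 of the 4 h group), and leaving out 1 array gave 3 to 6 lower. PTGS2, the inducible cyclooxygenase, had log2 signals of 4.20, 3.59, 4.00, 4.59 and 4.03 at 24 h, against 6.61, 6.23, 5.04, 4.02 and 5.85 at 4 h. The 24 h values were near background, the groups overlapped at replicate 4 of the 4 h group, and the difference was -1.47 (adjusted p = 0.00409). PTGES, the prostaglandin E synthase, fell by 1.88 and PTGIS, the prostacyclin synthase, by 0.68, the last not called without replicate 2 of the 24 h group. PTGFR, the receptor for PGF2α, had 11.68, 11.55, 11.28, 11.16 and 11.88 at 24 h, against 10.27, 10.66, 10.71, 10.69 and 10.61 at 4 h. All 24 h arrays were above all 4 h arrays and around the saline mean of 11.45, and the rise was 0.92 (SE 0.14, adjusted p = 4.79e-05).

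**Figure D2:**
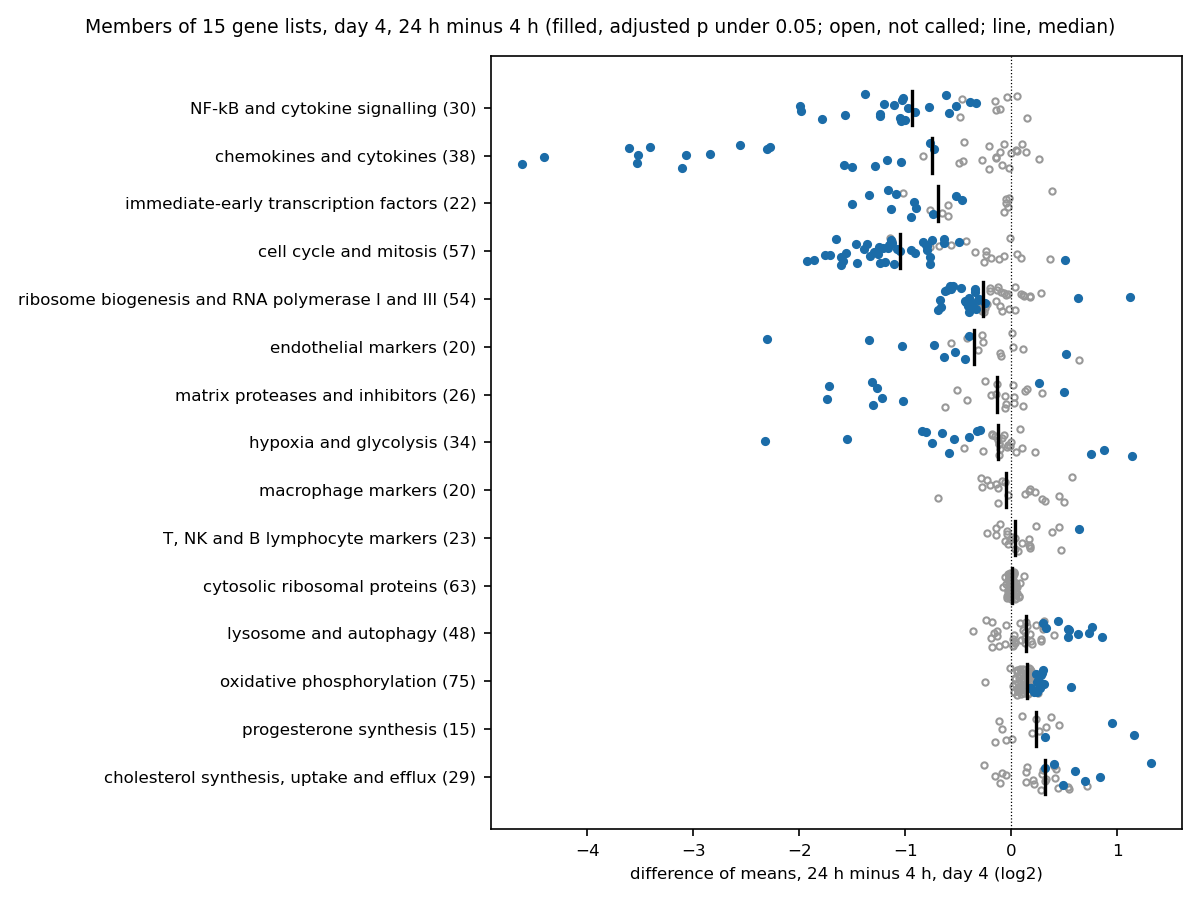
Difference of group means, 24 h minus 4 h, in log2 units (horizontal axis) for each measured member of 15 gene lists, with the number of members in parentheses. Filled points were called at an adjusted p under 0.05, open points were not, and the line is the median. The medians of the NF-κB, chemokine, immediate-early, cell cycle and ribosome biogenesis lists lie to the left of 0. Those of the cholesterol, progesterone and respiratory chain lists lie to the right, and each of these lists has members on both sides.

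Endothelial markers included 8 genes of 20 that fell and 1 that rose (2 without replicate 4 of the 24 h group or replicate 3 of the 4 h group), with a median difference of -0.35. The selectins SELP and SELE, which catch leucocytes from the blood, fell by 2.31 and 1.34, and NOS3, the endothelial nitric oxide synthase, by 1.03. PECAM1, present on all endothelium, had log2 signals of 8.32, 7.96, 8.43, 8.04 and 8.38 at 24 h, against 9.01, 9.05, 9.35, 8.63 and 8.69 at 4 h. These do not overlap, and the 24 h mean of 8.22 ± 0.21 was close to the saline mean of 8.31. The list mean was 7.43 to 7.62 in the 24 h arrays, against 7.75 to 8.05 in the 4 h arrays, and 5 members were called lower when replicates 1 and 5 of the 24 h group were left out. Of 16 smooth muscle and pericyte markers 3 fell and 0 rose, with CNN1 (calponin) and DES (desmin) at -1.73 and -1.28.

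Few leucocyte markers were called between 24 h and 4 h on day 4. Of 20 macrophage markers limma called 0, with 1 lower and 0 higher at an unadjusted p under 0.05, and of 15 genes of MHC class II presentation 0, with 1 in each direction unadjusted. LCK, a kinase of T cells, was the 1 of 23 lymphocyte markers called (difference 0.64), and 2 were called without replicate 1 of the 24 h group. The macrophage list mean ranged from 6.37 to 7.47 in the 24 h arrays and from 6.52 to 7.68 in the 4 h arrays, so the groups overlapped widely. Its lowest 24 h arrays were replicates 1 and 5. In the saline arrays the macrophage mean was 6.50 to 6.65. Against saline the median difference of these markers was 0.38 at 4 h and 0.52 at 24 h. Limma called 1 of 20 higher at 4 h and 0 at 24 h (all genes 3.29% and 3.03%). At an unadjusted p under 0.05, 5 and 6 were higher and 0 lower. CD14, a monocyte receptor, had a difference of -0.69 that was not called (adjusted p = 0.0778) but was without replicate 4 of the 24 h group or replicate 5 of the 4 h group. Of 13 neutrophil and eosinophil markers S100A12 and CXCR1, the receptor for CXCL8, were called, at -1.50 and -1.36, and neither was without replicate 5 of the 24 h group or replicate 1 of the 4 h group. That list ranged from 5.05 to 5.85 at 24 h and from 5.47 to 6.32 at 4 h, with MPO and ELANE near background. PLEK, a protein kinase C substrate of platelets and leucocytes, fell by 2.86, and its 4 h values included 1 of 4.86 in replicate 4. The part of leucocyte number in the chemokine falls was not tested.

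Of 34 genes of hypoxia and glycolysis 11 were lower and 3 higher, against 9.84% and 10.2% of all genes. The count of rises was thus near the share of all genes. NDRG1, a stress protein induced by low oxygen, had log2 signals of 7.98, 8.33, 8.06, 8.35 and 8.13 at 24 h, against 10.28, 10.38, 10.71, 10.47 and 10.61 at 4 h. The groups were far apart and the fall was 5.0-fold (adjusted p = 7.46e-08). PFKFB3, which speeds glycolysis, fell by 1.55. ADM (adrenomedullin), a vessel dilator, instead rose by 1.14 and EGLN3, an oxygen-sensing hydroxylase, by 0.88. The 24 h values of EGLN3 split into 2 arrays, replicates 3 and 4, at 5.82 and 6.05, and 3 under 4.50, and without either of the 2, or in a fit to the 10 arrays alone, the gene was not called. MT2A (metallothionein) fell by 1.70, PLIN2, the coat protein of lipid droplets, by 0.97, and NFIL3, a repressor in the circadian clock, by 1.14. Lipid droplet and fatty acid genes were lower in 2 of 40 and higher in 7 (4 without replicate 4 of the 24 h group). Clock genes were lower in 2 of 9 and higher in 1. PER2, a clock gene, had a difference of 0.91, called in all 30 arrays but not in a fit to the 10 arrays alone or without any one of 4 of them.

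Cell cycle genes were lower at 24 h, very unevenly between animals. CCNB1 (cyclin B1), which drives entry into mitosis, had log2 signals of 9.78, 7.16, 7.85, 5.65 and 8.79 at 24 h, against 9.59, 9.80, 9.59, 9.98 and 9.91 at 4 h. The 4 h arrays were tightly grouped, while at 24 h replicate 1 lay inside the 4 h range and replicate 4 far below every other array. The difference of means was -1.93 (SE 0.45, adjusted p = 0.00346), and CCNB1 was also lower than in saline glands, by -1.84 (adjusted p = 0.0145). CDK1, the kinase partner of cyclin B, had 10.29, 8.40, 9.0, 6.39 and 9.40 at 24 h, against 10.33, 10.48, 10.45, 10.45 and 10.55 at 4 h. Its 24 h arrays had the same order as those of CCNB1, but all of them lay below the 4 h range, and it was not called in a fit to the 10 arrays alone. CCNB2, CDCA8 and BIRC5 had differences of -1.86, -1.71 and -1.24, and neither CDCA8 nor BIRC5 was called without replicate 4 of the 24 h group or in a fit to the 10 arrays alone.

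Of 57 cell cycle and mitosis genes, 39 fell and 1, the cyclin CCND1, rose, with a median of -1.05. CCND1 was not called without replicate 1, 3 or 5 of the 24 h group or replicate 2 or 5 of the 4 h group. One of the 39, CDKN1A, encodes an inhibitor of cyclin-dependent kinases. Without replicate 4 of the 24 h group the count of falls was 22 and that of rises 2, and without replicates 1 and 5 it was 47. The list mean in the 24 h arrays was 8.98, 7.51, 8.03, 6.71 and 8.44 in replicates 1 to 5, against 8.69, 8.93, 8.66, 8.99 and 8.93 in the 4 h arrays. Only replicate 1 of the 24 h group thus reached the 4 h range. Against saline glands, 46 of the 57 were lower at 24 h and 0 higher (all genes 4.73% and 3.03%). At 4 h 2 were lower and 1 higher (all genes 1.99% and 3.29%).

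Genes of ribosome production also fell, by less. FBL (fibrillarin), which modifies ribosomal RNA, had log2 signals of 10.60, 10.02, 10.07, 9.62 and 10.36 at 24 h, against 10.77, 10.76, 10.56, 11.02 and 10.89 at 4 h. There was a small overlap, with replicate 1 of the 24 h group just above the lowest 4 h array, and the fall was 0.66 (adjusted p = 0.00122). The nucleolar helicase DDX21 and NOP56, a partner of fibrillarin, fell by 0.69 and 0.67. In all, 25 of 54 genes of ribosome biogenesis and RNA polymerases I and III fell and 2 rose, with a median of -0.27, and the falls numbered 10 without replicate 4 of the 24 h group and 12 and 15 without replicates 4 and 5 of the 4 h group. POLR1E, a subunit of RNA polymerase I, was 1 of the 2 that rose (1 without replicate 2, 3 or 4 of the 24 h group or replicate 1 or 3 of the 4 h group), with 10.43, 10.35, 10.31, 10.20 and 10.05 at 24 h, against 9.12, 9.04, 9.18, 9.12 and 9.27 at 4 h. Its groups were tight and apart. At 4 h POLR1E differed from saline glands by -1.23, and its 24 h mean of 10.27 ± 0.15 was near the saline mean of 10.37. Of 63 cytosolic ribosomal protein genes limma called 0, with 0 at an unadjusted p under 0.05 too, and their differences lay between -0.073 and 0.12. Amino acid synthesis and transport genes fell in 6 of 28, including the transaminase GPT2 (-1.18) and the glutamine transporter SLC1A5 (-0.91).

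**Figure D3:**
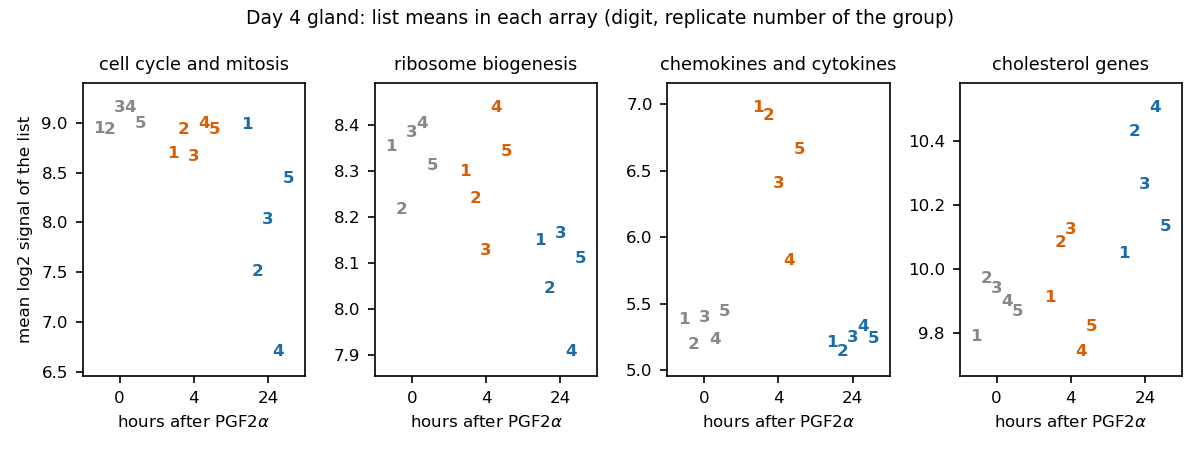
Mean log2 signal of all measured members of 4 gene lists (vertical axes, separate scales) in each day 4 array at 0 h (saline), 4 h and 24 h after PGF2α. Each digit is 1 array and gives its replicate number. At 24 h the cell cycle mean runs from 6.71 in replicate 4 to 8.98 in replicate 1, while the chemokine mean stays within 5.14 to 5.33.

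The genes that rose include steroid hormone genes and their regulators. CYP17A1, the enzyme that makes androgens in theca cells, had log2 signals of 8.74, 9.0, 9.46, 9.12 and 8.54 at 24 h, against 4.93, 5.01, 7.04, 5.56 and 5.27 at 4 h. The groups were apart, and the 10.6-fold rise (adjusted p = 3.78e-06) was the largest of the 9155 genes. It took CYP17A1 well above the saline mean of 5.67 (difference 3.30, adjusted p = 0.000205). LHCGR, the receptor for luteinizing hormone, had 7.51, 7.93, 8.10, 7.62 and 8.08 at 24 h, against 6.00, 6.37, 6.97, 6.02 and 6.13 at 4 h. It too was above both the 4 h range and, by 1.15, the saline mean (adjusted p = 0.0163). NR5A1 (steroidogenic factor 1), a transcription factor for steroid enzymes, rose by 0.95. ALDH1A1, which makes retinoic acid, rose by 1.55 and exceeded saline by 1.51. Luteal hormone receptors and hormones as a list had 3 of 29 genes higher and 3 lower, near the 10.2% and 9.84% of all genes.

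Within the 15 genes of progesterone synthesis 3 rose and 0 fell, with a median of 0.23. CYP11A1, the enzyme that cuts the side chain of cholesterol, had log2 signals of 13.48, 13.37, 13.24, 13.49 and 13.38 at 24 h, against 13.07, 13.10, 13.16, 12.96 and 13.04 at 4 h. Its groups did not overlap, although the rise was only 0.32 (SE 0.07, adjusted p = 0.00175). STAR, which carries cholesterol into mitochondria, had 12.79, 13.17, 13.22, 13.21 and 13.06 at 24 h, against 12.53, 12.78, 12.72, 12.80 and 12.76 at 4 h, and its groups barely overlapped, through replicate 1 of the 24 h group. HSD3B1, which makes progesterone from pregnenolone, had 13.64, 13.59, 13.52, 13.56 and 13.58 at 24 h, against 13.10, 13.36, 13.29, 13.24 and 13.26 at 4 h, with no overlap. Neither STAR (0.37, adjusted p = 0.288) nor HSD3B1 (0.33, adjusted p = 0.299) was called in the fit to 30 arrays, where all groups share 1 estimate of spread. Fits to the 10 arrays and to the 15 day 4 arrays alone called both, and over the 21 alternatives the adjusted p ran from 0.0112 to 0.447 for STAR and from 0.00303 to 0.45 for HSD3B1. CYP21A2, which takes progesterone toward corticoids, had a difference of 1.16 that was not called without replicate 5 of the 24 h group, or without replicate 1 or 2 of the 4 h group. OXT and the nuclear receptor NR5A2 did not pass, at 0.03 and -0.12.

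**Figure D4:**
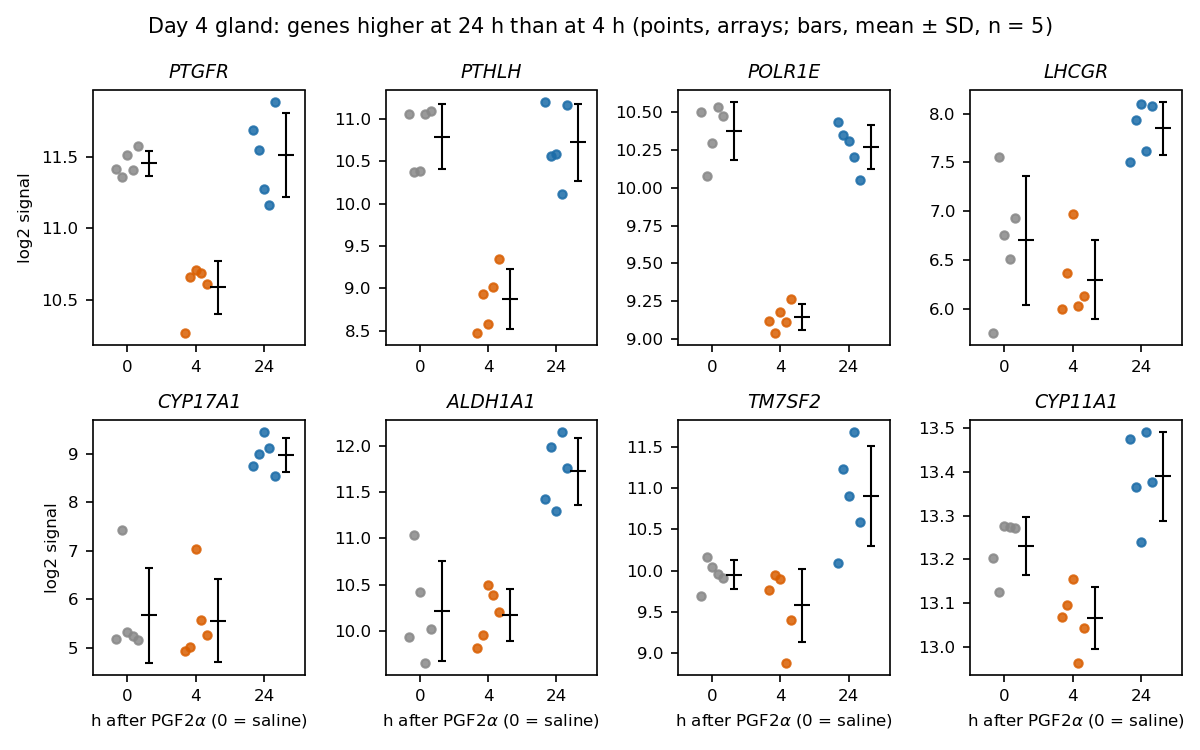
RMA log2 signal (vertical axes, separate scales) of 8 genes in the day 4 arrays at 0 h (saline), 4 h and 24 h after PGF2α. Points are arrays and bars are mean ± SD (n = 5). PTGFR, PTHLH and POLR1E are low at 4 h and near the saline level at 24 h, while LHCGR, CYP17A1 and ALDH1A1 are above the saline mean at 24 h.

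Cholesterol genes rose in 7 of 29 and fell in 0, and the median was 0.32. TM7SF2, a sterol reductase, had log2 signals of 10.09, 11.23, 10.91, 11.68 and 10.59 at 24 h, against 9.76, 9.95, 9.90, 8.88 and 9.41 at 4 h. Every 24 h array was above every 4 h array, and the rise was 1.32 (adjusted p = 0.00025). MVK (mevalonate kinase), NSDHL of late cholesterol synthesis and LIPE, the hormone-sensitive lipase, rose by 0.84, 0.60 and 0.70. NSDHL and LIPE lost their calls without replicate 4 of the 24 h group or replicate 5 of the 4 h group, NSDHL also without replicate 2 of the 24 h group or replicate 4 of the 4 h group, and LIPE also with the mean of its 4 probe sets. The number of cholesterol genes higher was 4 without replicate 2 or replicate 4 of the 24 h group, 4 and 3 without replicates 4 and 5 of the 4 h group, and 12 without replicates 1 and 5 of the 24 h group.

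Small rises were spread over the respiratory chain, where 16 of 75 genes were higher and 0 lower, 73 of the 75 having a positive difference, with a median of 0.16. NDUFA13, a subunit of complex I, had log2 signals of 10.95, 10.91, 10.91, 10.88 and 10.91 at 24 h, against 10.43, 10.57, 10.61, 10.66 and 10.72 at 4 h, a rise of 0.31 without overlap. NDUFS8 of the same complex, UQCR10 of complex III and COX7A1 of complex IV rose by 0.30, 0.30 and 0.57. The count was 9 without replicate 2 of the 4 h group, and 9 without replicates 1 and 5 of the 24 h group. Against saline glands the median of the 75 was -0.10 at 4 h and 0.03 at 24 h. Of the 75, 0 were called against saline at 4 h, and 1 was called higher at 24 h (3.03% of all genes). In the list of 48 lysosome and autophagy genes 10 rose and 0 fell, against 10.2% and 9.84% of all genes. At 24 h 10 were above saline and 0 below, against 3.03% and 4.73% of all genes. GAA, which breaks down glycogen, and the cathepsins CTSF and CTSV rose by 0.74, 0.86 and 0.63. Antioxidant genes rose in 11 of 42 and fell in 2, and GSTA2, a glutathione transferase, had the largest rise of them at 1.20.

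Other genes of varied function also changed. PTHLH, the parathyroid hormone-like peptide, had log2 signals of 11.20, 10.56, 10.59, 10.12 and 11.16 at 24 h, against 8.47, 8.93, 8.58, 9.01 and 9.35 at 4 h. The groups were well apart. PTHLH had been called lower at 4 h than in saline glands, as had PTGFR and POLR1E, and its saline mean was 10.79. The cadherin CDH8 rose by 2.47 and CDH2 (N-cadherin) by 1.37, whereas CDH1 (E-cadherin) fell by 1.56 and was below saline by -1.19 (adjusted p = 0.00592). KRT18, an epithelial keratin, had a difference of -0.92 and lost its call without any one of 6 arrays. Of 20 epithelial and junction genes 2 were higher and 2 lower, which is near the 10.2% and 9.84% of all genes. IGFBP5 and IGFBP1, binding proteins of insulin-like growth factors, moved apart, at 1.62 and -1.64. TNNI3, a troponin of heart muscle, rose by 1.62. BBOX1 of carnitine synthesis, GPAM of glycerolipid synthesis and the chaperone HSPA2 rose by 1.74, 1.23 and 0.85. Chaperone and unfolded protein response genes were higher in 4 of 37 and lower in 3. Their median was -0.12, and 28 of the 37 had a negative difference. When 1 array was left out, 1 to 4 were higher and 1 to 10 lower.

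Because the day 11 gland is the one that regresses after PGF2α, the change between 4 h and 24 h was compared between the days, on arrays that the days do not share. The change differed between day 4 and day 11 for 4224 probe sets (17.6%) and for 2203 of 9155 genes (24.1%), with 1063 genes more positive on day 4 (11.6%) and 1140 more negative (12.5%). Genes called on both days went the same way in 452 cases and opposite ways in 290. Across the 9155 genes, which are not independent replicates, the changes of the days correlated at 0.08. On day 11, 2799 genes were called between 24 h and 4 h (30.6%), 1487 higher (16.2%) and 1312 lower (14.3%).

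For some chemokines the decline differed between the days, and for other genes of the early response no difference was called. CXCL8 differed by -3.52 on day 4 and by 0.01 on day 11, and the change differed between days by -3.54 (adjusted p = 0.00265). CXCL2 and CCL2 likewise had -4.41 and -3.11 on day 4, against 0.33 and 0.78 on day 11 (adjusted p of the difference 0.00422 and 4.54e-07). FGF2 and IL1B fell on both days, by 4.05 and 3.61 on day 4 and by 3.17 and 2.20 on day 11, with no difference called (adjusted p = 0.266 and 0.247). Of 38 chemokine and cytokine genes 10 had a more negative change on day 4 and 1 a more positive one, and of 30 NF-κB genes 10 and 0. FOSB had differences of -1.13 on day 4 and -3.09 on day 11 (adjusted p of the difference 0.000155). NDRG1 had a difference of -0.10 on day 11, which was not called, and PFKFB3 and MT2A, which fell on day 4, rose there by 1.22 and 0.98.

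**Figure D5:**
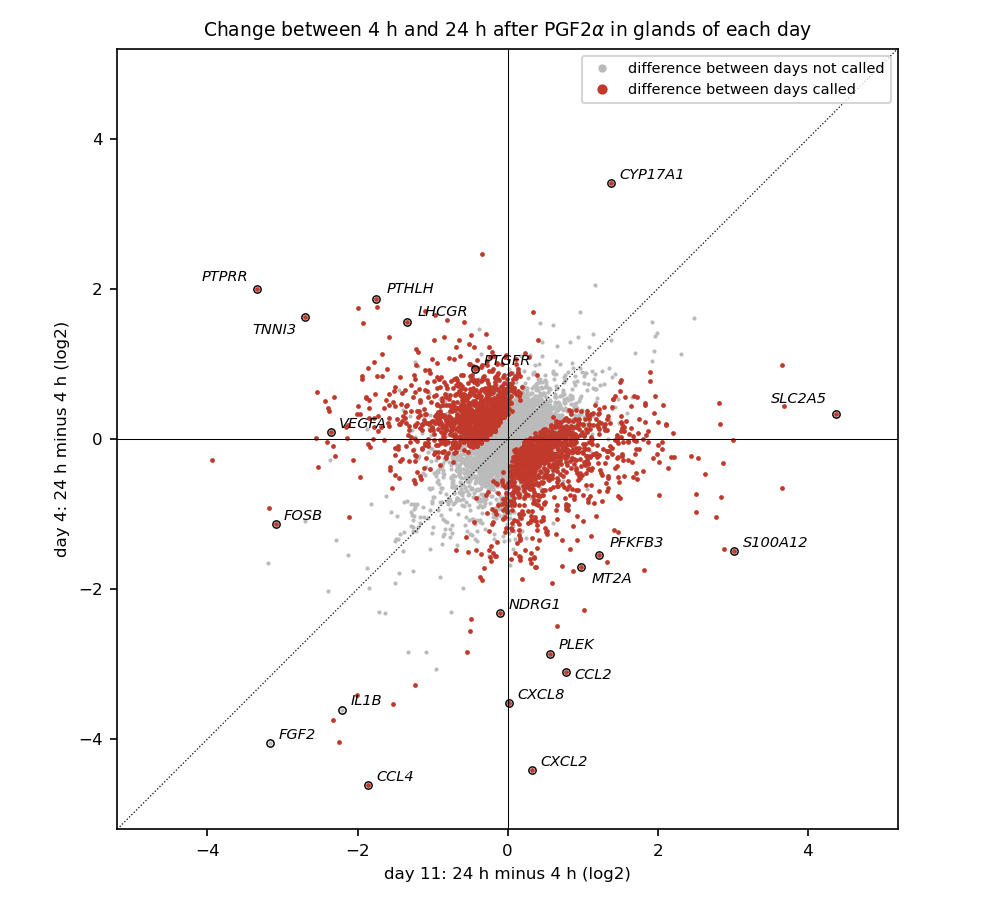
Log2 difference between 24 h and 4 h after PGF2α on day 4 (vertical axis) and on day 11 (horizontal axis) for 9155 genes. Red points are genes whose change differed between the days at an adjusted p under 0.05, circles mark the genes named, and the dotted line is equal change. LHCGR, PTHLH, TNNI3 and PTPRR lie at upper left, higher on day 4 and lower on day 11, and CXCL2, CXCL8 and CCL2 lie near 0 on day 11 and far below it on day 4.

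Several named genes of luteal function changed differently on the 2 days. Of 29 luteal hormone receptors and hormones, 5 had a more positive and 3 a more negative change on day 4, against 11.6% and 12.5% of all genes. Of 15 progesterone synthesis genes 8 and 1 did. LHCGR rose by 1.55 on day 4 and fell by 1.34 on day 11 (difference 2.89, adjusted p = 7.15e-06), and PTHLH rose by 1.86 and fell by 1.75 (3.61, adjusted p = 2.43e-08). PTGFR rose on day 4 and fell by 0.44 on day 11. The changes of STAR, HSD3B1 and CYP11A1, which fell on day 11 by 1.20, 2.00 and 0.57, differed from those of day 4 by 1.58, 2.33 and 0.89. VEGFA had 0.09 on day 4 and -2.36 on day 11. The largest difference in favour of day 4 was that of PTPRR, a protein tyrosine phosphatase, which rose by 1.99 on day 4 and fell by 3.34 on day 11. The median of 29 cholesterol genes was 0.32 on day 4 and -0.98 on day 11, and the change differed in 20 of them, always more positive on day 4. For 75 respiratory chain genes the medians were 0.16 and -0.33, and 62 differed, again with day 4 the more positive.

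Many cell cycle genes and macrophage markers had a more negative change on day 4. The cell cycle median was -1.05 on day 4 and 0.15 on day 11, and 31 of 57 genes were more negative on day 4 and 2 more positive. At 4 h the mean of this list was already lower on day 11, at 6.69 to 7.11, against 8.66 to 8.99 on day 4. At 24 h it was 6.93 to 7.23 on day 11 and 6.71 to 8.98 on day 4. The part of the starting level in the difference between days was not tested. CDK1 differed by -2.62 between the days (adjusted p = 0.00183). Macrophage markers had a median of -0.04 on day 4 and 0.75 on day 11, where 10 of 20 rose, and 9 of the 20 had a more negative change on day 4. The other leucocyte lists had 2 of 13 (neutrophils and eosinophils), 1 of 23 (lymphocytes) and 1 of 15 (MHC class II) more negative on day 4, against 12.5% of all genes. S100A12 fell by 1.50 on day 4 and rose by 3.02 on day 11. FABP4, a fatty acid carrier, SLC2A5, a fructose transporter, and the platelet chemokine PF4 were not called on day 4 (-0.66, 0.33 and -0.78), and rose on day 11 by 3.66, 4.37 and 2.85. PF4 was called lower on day 4 with array weights (-0.99) and without replicate 1 of the 24 h group (-0.97). Lysosomal genes rose in 10 of 48 on day 4 and in 32 of 48 on day 11, and 14 had a more positive change on day 11 and 1 on day 4.

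The genes that respond first in the mature gland were followed in the young one. On day 11, 921 genes were called higher and 1202 lower at 4 h than in saline glands, on arrays that the day 4 comparison does not use. On day 4, 400 of the 921 were lower at 24 h than at 4 h (43.4%) and 7 higher, with a median of -0.34, against 9.84% lower among all genes. Of the 1202, 424 were higher (35.3%) and 20 lower, with a median of 0.23, against 10.2% higher among all genes. Leaving out 1 of the 10 arrays at a time gave 334 to 406 falls among the 921, and 339 to 417 rises and 7 to 32 falls among the 1202. The lowest and highest of these last counts were those without replicate 4 and without replicate 1 of the 24 h group, and the count was 10 without replicate 2 of the 24 h group and 12, 13 and 12 without replicates 2, 4 and 5 of the 4 h group.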

How the data were processed

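RNA of luteal tissue was measured on 30 arrays, 1 per heifer. The authors deposited 1 log2 signal for each probe set and array, computed with RMA per the submitters' processing notes. RMA corrects background, normalizes between arrays and summarises probes. Its version and the arrays normalized together are not given in the sources used here, and it gives no detection call. The deposited values ran from 1.80 to 14.35 and were used as they are.

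Of 24128 probe sets, 112 controls were left out. The platform annotation gave 13292 of the others 1 gene symbol, 86 several and 10638 none. A gene with several probe sets (2913 of 9155) was represented by that with the highest mean over the 30 arrays. One linear model in limma 3.58.1 (R 4.3.3) covered all 30 arrays, had 1 coefficient for each of the 6 groups and used no blocking. The residual degrees of freedom were 24, or 28.2 after empirical Bayes moderation. The contrasts were 24 h minus 4 h on each day, the difference of these between days, and 4 h and 24 h minus 0 h. P values were adjusted by Benjamini-Hochberg over all 24016 probe sets. Differences are 24 h minus 4 h unless stated, in log2 units, and errors are SD over arrays or SE of the fit.

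Named were, among called genes whose groups do not overlap, the top 15 by rise and the top 15 by fall, up to 4 called members of each of 39 gene lists (the 2 lowest in p for a list with no call), the 8 largest differences between days in each direction, and a panel of genes of luteal function and the first response to PGF2α. Of these, 117 with a known function appear in the text. Genes outside this rule, such as CCND1, CDKN1A and the dim markers, were named after their values were seen. The comparison, the lists (with 1110 measured entries) and the panel were chosen with earlier results of these data known. Lists are described by counts and medians and were not tested. The alternatives were other scalings, probe set filters, array weights, the replicate numbers as a block, smaller sets of arrays, stricter thresholds, the mean of a gene's probe sets and leaving out arrays. Leaving out replicates 1 and 5 of the 24 h group together was added after seeing the data. The fit was tested on simulated data.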

Additional observations from a re-analysis of the deposited data

Results flagged for a closer look

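The change between 24 h and 4 h differed between day 4 and day 11 for 4224 probe sets, tested as an interaction in limma. Among the 117 named genes 77 were called, 44 with a more negative and 33 with a more positive change on day 4. The share of all genes was 24.1%, but genes were named partly for a large difference between days or a large day 4 change. The count of 77 is therefore no result about them as a set. The values below are day 4 minus day 11 in log2 units, and the means behind most of them are in the text above. Among chemokines and cytokines the difference (day 4 minus day 11) was -4.74 for CXCL2, -3.89 for CCL2, -3.54 for CXCL8, -2.76 for CCL4, -2.01 for CCL8 and -1.40 for IL33. For signalling genes, growth factors and early transcription factors it was -1.42 for AREG, -1.41 for EDN1, -1.15 for ANGPT2, -0.98 for TGFB2, 2.44 for VEGFA, -1.34 for ICAM1, -1.76 for SOCS3 and -1.54 for TRIB1. It was also called at -0.97 for IER3, 1.96 for FOSB, -0.94 for NFIL3, -2.31 for FZD10, -3.43 for PLEK, -2.05 for PTX3 and -1.79 for LOC281376. Genes of matrix and vessels had -3.56 for LOXL4, -1.41 for PLAUR, -0.76 for TIMP3, -1.34 for VCAN and -1.60 for THBS2. Genes of hypoxia, metals, lipid droplets and the clock had -2.22 for NDRG1, -2.77 for PFKFB3, 1.02 for EGLN3, -2.68 for MT2A and -0.95 for PLIN2. Hormone receptors, hormones and prostaglandin genes had 2.89 for LHCGR, 3.61 for PTHLH, 1.36 for PTGFR, -1.54 for PTGES and -2.97 for IGFBP1. Steroid genes had 2.03 for CYP17A1, 1.31 for NR5A1, 0.89 for CYP11A1, 2.35 for CYP21A2, 1.58 for STAR and 2.33 for HSD3B1. Cholesterol and retinoid genes had 2.30 for TM7SF2, 2.52 for MVK, 2.37 for NSDHL, 1.37 for LIPE and 2.14 for ALDH1A1. Mitochondrial and lysosomal genes had 0.97 for COX7A1, 0.77 for NDUFA13, 0.87 for UQCR10, 0.87 for NDUFS8 and 0.68 for GAA. Cell cycle, ribosome and amino acid genes had -2.52 for CCNB1, -2.06 for CCNB2, -2.62 for CDK1, -2.09 for CDCA8, -1.76 for BIRC5, 1.14 for POLR1E, -0.77 for DDX21 and -1.70 for SLC1A5. Leucocyte, complement and acute-phase genes had -4.51 for S100A12, -2.02 for CD14, -1.39 for VSIG4, -3.63 for PF4, 1.14 for C4A, 1.71 for PSMB9 and 3.46 for SERPINA3-7. Adhesion, epithelial and muscle genes had 2.81 for CDH8, -1.39 for CDH1, 2.26 for KRT18 and 4.32 for TNNI3. The remaining ones were 5.33 for PTPRR, 3.74 for BBOX1, 2.42 for GSTA2, 1.47 for HSPA2, -4.32 for FABP4 and -4.04 for SLC2A5.

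In 12 of 234 groups of 5 values tested, 1 array stood far from the other 4, where chance alone gives about 1 in 20. In the 24 h group these were IL33 in replicate 3 at 6.65, CDH8 in replicate 4 at 7.17 and CYP21A2 in replicate 5 at 7.55, all high. Low values there were MAFF in replicate 5 at 5.89, IGFBP5 and CDH2 in replicate 3 at 9.53 and 9.46, and PTPRR in replicate 2 at 8.17. In the 4 h group replicate 1 was low for SRF, PTGFR and KRT18, at 7.42, 10.27 and 11.91, replicate 4 was low for CXCR1 at 4.24, and replicate 3 was high for CDH8 at 5.10.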

How the results depend on the processing

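The count of 3580 probe sets changed between 24 h and 4 h on day 4 was 1934 at an adjusted p under 0.01 and 538 with a change of at least 2-fold, of which 152 were higher and 386 lower. Leaving out 1 array gave 2598 (without replicate 4 of the 24 h group) to 3901 (without replicate 1 of the 24 h group). The count of 4224 for the difference between days was 2578 at an adjusted p under 0.01 and 1397 at 2-fold or more, and 3701 to 4348 without 1 array. With the replicate number as a block the counts were 3848 and 4421. The numbers do not pair the animals: deviations of same-numbered arrays from their group means correlated at -0.195, -0.01, 0.188, 0.001 and 0.263. Counts under the other alternatives ran from 3517 to 4965 and from 4030 to 4779, the highest with array weights.

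Of 2453 values of the 117 named genes under alternatives, 2382 kept their direction and call, 52 lost a call, 14 gained one and 5 changed sign, over 23 genes. The sign changes were those of genes not called: VEGFA ran from -0.071 to 0.28 when 1 array was left out and had -0.21 without replicates 1 and 5 and -0.15 with the mean of its probe sets, NR5A2 ran from -0.31 to 0.12 when 1 array was left out, and OXT had -0.0066 without replicates 1 and 5. The causes were not tested. Probe sets near background limit what can be seen of genes such as CXCL2 and PTGS2 at 24 h, where RMA values may understate a fold change.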

Other observations

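Complement genes were higher at 24 h in 2 of 22 on day 4 and lower in 0, near the 10.2% higher among all genes (1 lower at an unadjusted p under 0.05 in limma), and the count was 4 without replicate 1 of the 24 h group and 7 without replicates 1 and 5. C4A, which is cleaved in the classical pathway, had log2 signals of 11.59, 12.49, 12.51, 12.89 and 12.05 in the 24 h arrays, against 11.29, 11.21, 11.70, 11.31 and 11.07 in the 4 h arrays. The groups overlapped through replicate 1 of the 24 h group, and the difference was 0.99 (adjusted p = 0.00164). C6, part of the membrane attack complex, had a difference of 1.14 with no overlap. PSMB9, an interferon-induced subunit of the immunoproteasome, was 1 of 2 interferon-stimulated genes of 31 that rose, by 0.82 (all genes 10.2%, and 1 of 31 without any one of 7 of the 10 arrays), and on day 11 it fell by 0.89. VSIG4, a complement receptor of macrophages, had 0.57 and was called without replicates 1 and 5, at 1.10.

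Of 16 acute-phase genes listed, 1 was higher (ORM1), 1 was lower (PTX3) and 14 were not called, with a median of 0.02. When 1 array was left out, 0 to 2 were higher and 1 to 3 lower. SERPINA3-7, a serpin outside that list, whose family has closely related copies that a probe set may not separate, had 7.13, 8.63, 7.54, 8.79 and 7.85 at 24 h, against 6.55, 6.27, 6.27, 6.83 and 6.31 at 4 h. It rose without overlap, by 1.54 (adjusted p = 0.00107). ORM1 had 4.37, 5.15, 5.55, 7.11 and 4.58 at 24 h, against 4.05, 3.45, 3.64, 4.29 and 4.03 at 4 h, and replicate 4 was the highest. Its difference of 1.46 (adjusted p = 0.0452) lost its call under 10 of 21 alternatives.

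Other large changes had no list. LRRC17, a secreted leucine-rich repeat protein, rose by 2.04, PEG3, an imprinted zinc finger gene, by 1.41, and PERP, a p53 target of cell junctions, by 1.18. FZD10, a receptor for Wnt ligands, had 3.46, 3.60, 3.51, 3.82 and 3.77 at 24 h, against 6.50, 6.25, 6.97, 5.95 and 6.72 at 4 h. Its difference was -2.84, and with 24 h values near background the fall may be understated.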
